A study of Homo sapiens with 16 samples.

Results

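The genes described here are the 10 that encode the cereblon ubiquitin ligase and the Ikaros family of zinc finger transcription factors. They were taken as the probes whose gene symbol on the array was CRBN, DDB1, CUL4A, CUL4B, RBX1, IKZF1, IKZF2, IKZF3, IKZF4 or IKZF5, which gave 17 of the 50599 non-control probes and 10 of the 34423 gene symbols. RNA came from RPMI-8226 and MM.1S, established multiple myeloma cell lines, cultured for 6 days with the solvent DMSO, with the EZH2 inhibitor GSK126 (1 μM), with the G9a inhibitor UNC0638 (1 μM) or with both agents together (1 μM each), and each of the 8 groups held 2 biological replicates on 1 array each. EZH2 writes methylation on lysine 27 of histone H3 and G9a, encoded by EHMT2, writes it on lysine 9. No immunomodulatory drug was part of any of these groups, and each line is a single culture line, so the groups speak for these lines and not for myeloma in general.

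Cereblon is the substrate receptor of a cullin-RING ubiquitin ligase. DDB1 links the receptor to the scaffold CUL4A or CUL4B, and RBX1 is the RING subunit that brings in the ubiquitin-conjugating enzyme. Thalidomide, lenalidomide and pomalidomide bind cereblon and turn it towards new substrates, among them Ikaros (IKZF1) and Aiolos (IKZF3), whose loss is toxic to myeloma cells because both factors sustain the plasma cell regulator IRF4. Helios (IKZF2) and Eos (IKZF4) are relatives best known from T cells, and Pegasus (IKZF5) is the most distant member of the family. The comparisons below ask how inhibition of EZH2, of G9a or of both moved the RNA of this machinery and of its substrates.

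All values are levels of RNA hybridised to a probe, written as the log2 signal minus the 75th percentile of its array, so that 0 marks the 75th percentile. Each gene was read from its reference probe, the one whose mean signal over the 16 arrays was highest. Levels of different probes are not compared. All 10 reference probes were well above background, by the scanner software, on all 16 arrays, and none of the 17 probes was saturated. Of the other probes 3 were well above background on no array: a DDB1 probe designed on a separate Ensembl transcript and both further IKZF2 probes. The second IKZF1 probe, also designed on an Ensembl transcript rather than on the RefSeq mRNA, was well above background on all 8 MM.1S arrays and on none of the 8 RPMI-8226 arrays.

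The probes that change how a result reads lie inside the mRNA and are shown here, 5′ to 3′ in the sense of the transcript, with hg19 coordinates as the array files give them. The CUL4A probe at transcript position 2229 (chr13:113917835-113917894, plus strand) gave the same direction as the reference probe at position 2985 (chr13:113918591-113918650). The CUL4B probe at position 2803 (chrX:119666344-119666403, minus strand) did not follow the reference probe at position 4735 (chrX:119659000-119659059). The IKZF2 probe at position 393 (chr2:214012434-214012493, minus strand) stayed at background, as did the one at position 3065, while the reference probe at position 9307 of the same mRNA (chr2:213864536-213864595) was detected on every array. IKZF2 is therefore measured here only at the far 3′ end of its longest mRNA. No capitals are used in these 3 sequences because no stretch within a 60-base probe was singled out.
CUL4A position 2229: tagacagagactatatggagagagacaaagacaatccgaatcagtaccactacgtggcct
CUL4B position 2803: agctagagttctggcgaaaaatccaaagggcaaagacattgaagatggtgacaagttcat
IKZF2 position 393: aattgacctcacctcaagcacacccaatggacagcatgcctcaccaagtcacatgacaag

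The labelled cell type was checked against marker genes. All 8 plasma cell markers examined (SDC1, TNFRSF17, XBP1, PRDM1, IRF4, MZB1, POU2AF1 and CD38) were well above background on every array of both lines. So were CD3D, CD2, CD14 and KRT8, markers of other cell types, and in RPMI-8226 also CSF1R and EPCAM. CD3E, COL1A1 and COL1A2 were not on every array of either line. Detection on every array therefore does not by itself tell the cell type. Replicates of a group correlated over the kept probes with r of 0.9855 to 0.9915 in RPMI-8226 and 0.9929 to 0.9946 in MM.1S. The share of spots well above background ran from 46.5% to 52.8%, and the number of arrays, 2 in each group, limits the precision. The lines lay on a slide each and were scanned apart, so line and slide cannot be told apart; each line's treatments were compared within its slide.

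In the untreated lines, 6 of the 10 genes differed. IKZF1 was 2.75-fold lower in RPMI-8226 than in MM.1S (log2 difference -1.46, SE 0.15, limma adjusted p = 1.29e-05), and IKZF2 was 2.90-fold higher (1.54, SE 0.11, adjusted p = 7.51e-07). DDB1 was 1.93-fold higher in RPMI-8226 (0.95, adjusted p = 5.15e-05). IKZF4 (-0.62), IKZF5 (-0.54) and CUL4B (-0.33) were lower there, with adjusted p of 0.00241, 0.00288 and 0.0272. For CRBN (-0.10, 95% interval -0.48 to 0.27), RBX1 (-0.06, -0.31 to 0.18), CUL4A (0.25, -0.02 to 0.52) and IKZF3 (-0.32, -0.87 to 0.24) the difference was within its error. Over all 19192 genes tested 58.4% differed between the untreated lines in either direction, so 6 of 10 is close to the share of genes at large. The CUL4B call was lost without RPMI-8226 DMSO replicate 1 or without either MM.1S DMSO array (adjusted p up to 0.158).

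On the DMSO arrays IKZF1 stood at 2.32 and 2.43 in RPMI-8226 and at 3.62 and 4.05 in MM.1S. IKZF2 stood at -0.99 and -0.96 in RPMI-8226 and at -2.53 and -2.50 in MM.1S. Neither gene overlapped between the lines on any of the 16 arrays, whatever the treatment: the 8 RPMI-8226 arrays held IKZF1 at 2.32 to 2.79 and the 8 MM.1S arrays at 3.62 to 4.23, while IKZF2 ran the other way, from -0.99 to -0.26 against -2.87 to -2.13. By their reference probes, the Helios and Ikaros transcripts therefore ranked the lines in opposite order under every treatment. Line and slide cannot be told apart here, and IKZF2 was read only at the far 3′ end of its mRNA.

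**Figure D1:**
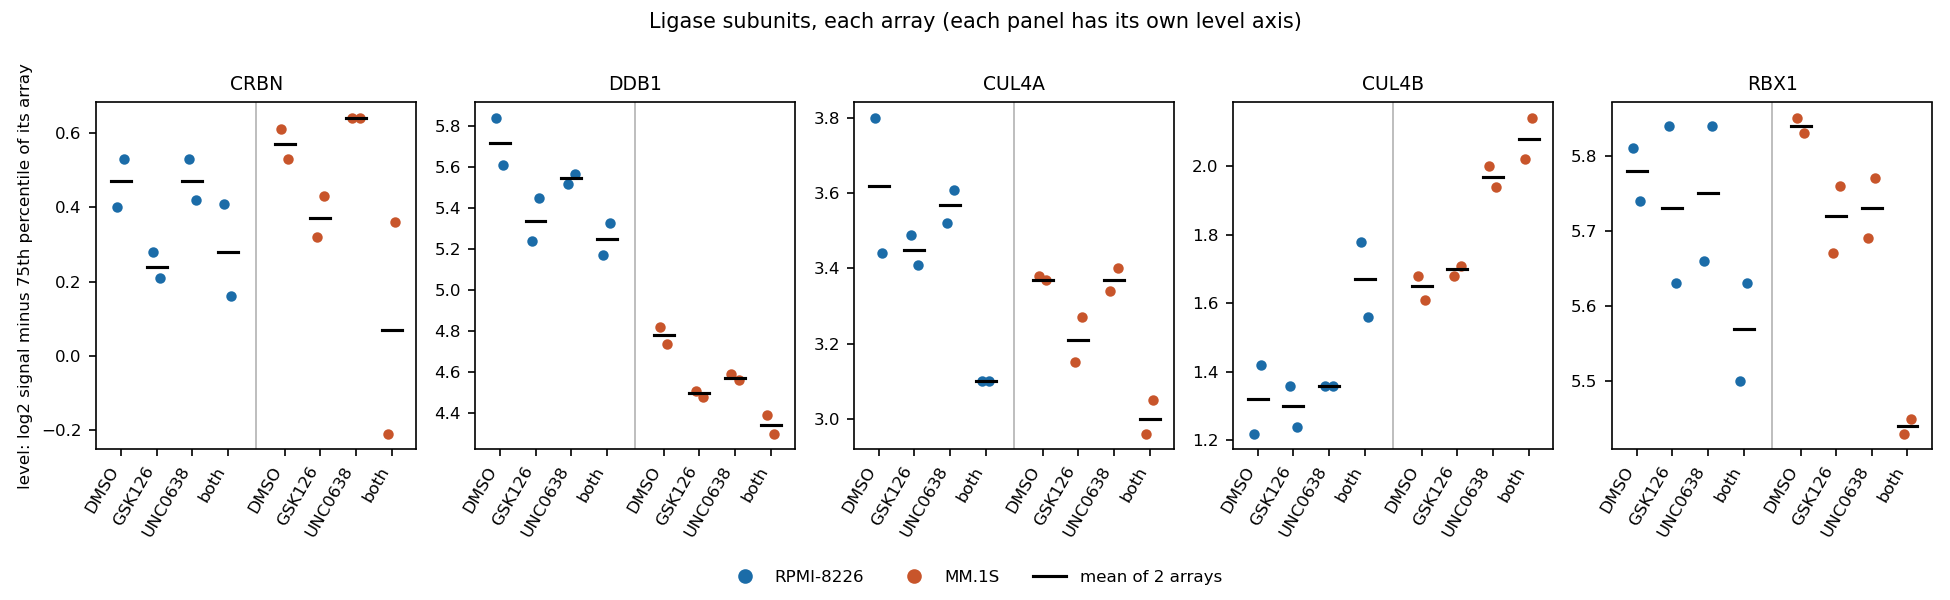
Levels of CRBN, DDB1, CUL4A, CUL4B and RBX1 (log2 signal minus the 75th percentile of the array) on each of the 16 arrays; points are arrays, black bars the mean of the 2 arrays of a group, blue RPMI-8226 and orange MM.1S. By group mean, DDB1, CUL4A and RBX1 lie lowest under both agents in each line, and CUL4B lies highest there.

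GSK126 alone changed none of the 10 genes past the threshold in either line. In RPMI-8226, where 0.648% of the 16812 genes tested were called higher and 0.0476% lower, 1 of the 10 had an unadjusted p under 0.05. That gene was DDB1 (-0.38, SE 0.16, limma adjusted p = 0.457). In MM.1S, where 5.73% of 17920 genes were higher and 2.39% lower, 4 of the 10 had an unadjusted p under 0.05, and their limma adjusted p were 0.0844 for DDB1 (-0.28), 0.0762 for IKZF2 (0.35), 0.119 for IKZF4 (0.24) and 0.156 for IKZF1 (0.37).

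UNC0638 alone changed none of the 10 in RPMI-8226 (0 with an unadjusted limma p under 0.05; 0.654% of all genes were higher and 0.0654% lower) and raised 2 of them in MM.1S, where 13.6% of all genes were higher and 16.4% lower. IKZF3 rose 1.34-fold in MM.1S (log2 change 0.42, SE 0.09, limma adjusted p = 0.0171) and CUL4B rose 1.25-fold (0.32, SE 0.08, adjusted p = 0.0324). The other 8 genes did not pass the test there; DDB1 (-0.20) and IKZF2 (-0.26) had adjusted p of 0.101 and 0.0769, and IKZF2 was called with quantile normalization (-0.33, 0.0381). The CUL4B call was lost without either array of DMSO, GSK126 or UNC0638 (adjusted p up to 0.136) and the IKZF3 call without DMSO replicate 1 or either UNC0638 array (up to 0.0847).

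The combination moved the ligase subunits of MM.1S in both directions. DDB1 fell 1.35-fold (log2 change -0.43, SE 0.08, limma adjusted p = 0.00511), RBX1 1.32-fold (-0.40, SE 0.08, adjusted p = 0.00638) and CUL4A 1.29-fold (-0.37, SE 0.08, adjusted p = 0.0114), while the reference probe of CUL4B rose 1.35-fold (0.43, SE 0.08, adjusted p = 0.00592). Among the Ikaros family, IKZF3 rose 1.37-fold (0.46, SE 0.09, adjusted p = 0.00604). That is 2 of 10 genes higher and 3 lower, where 22.9% of all genes tested were higher and 32.0% lower, shares close to those of the 10. Of the calls over all genes 41.7% were higher, and 61.5% with the percentile taken over detected probes; in RPMI-8226 the same values were 62.6% and 79.9%, for UNC0638 in MM.1S 45.3% and 64.8%, and for GSK126 in MM.1S 70.6% and 85.1%, with 57.6% after normexp correction. Quantile normalization gave 56.1% for UNC0638 in MM.1S. Fewer cells with a transcript and less of it in each cell cannot be told apart in bulk RNA.

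The arrays behind these calls did not overlap with DMSO, which describes the same values and adds no support to the calls. Of 60 pairs of a gene and a treatment against DMSO in both lines, 19 lay wholly higher and 21 wholly lower, many without a call. The share over all genes was not counted. DDB1 read 4.82 and 4.74 with DMSO, 4.51 and 4.48 with GSK126, 4.59 and 4.56 with UNC0638 and 4.39 and 4.30 with both. RBX1 read 5.85 and 5.83 with DMSO, 5.67 and 5.76 with GSK126, 5.69 and 5.77 with UNC0638 and 5.43 and 5.45 with both. Each of these 2 subunits was lowest on the combination arrays, and both single agents lay between. CUL4A, the scaffold, read 3.38 and 3.37 with DMSO, 3.15 and 3.27 with GSK126, 3.34 and 3.40 with UNC0638 and 2.96 and 3.05 with both. CUL4A with UNC0638 alone differed from DMSO by less than its error (-0.01, 95% interval -0.21 to 0.20), and the combination was lower than UNC0638 alone (-0.37, limma adjusted p = 0.0422), a call that was lost whichever of the 8 MM.1S arrays was left out (adjusted p up to 0.154).

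These 3 declines depend on the scaling. When the 75th percentile was taken over the probes detected on all 16 arrays, every MM.1S combination difference shifted up by 0.2145, and none of DDB1, RBX1 and CUL4A passed the threshold; with quantile normalization the log2 changes were -0.05 for DDB1, 0.07 for RBX1 and -0.09 for CUL4A. Leaving out single arrays changed 1 of the 3, CUL4A without DMSO replicate 1 (adjusted p = 0.0534).

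DDB1 and RBX1 were both called lower with both agents in MM.1S, calls that did not hold with quantile normalization or with the percentile over detected probes. CUL4A, called lower as well, has several windows and enters only the totals below. The stretches upstream of the DDB1 and RBX1 starts are shown side by side. Each is the 250 bases before the gene's start in the RefSeq table (GRCh38.p14; DDB1 chr11:61333106-61333355, minus strand; RBX1 chr22:40951128-40951377, plus strand), and capitals mark matches, on either strand, to the 4 motifs searched: the E-box CACGTG, the ETS motif CCGGAAG, the GC box GGGCGG and the interferon-type motif, GAAA followed after any 2 bases by GAAA.
DDB1: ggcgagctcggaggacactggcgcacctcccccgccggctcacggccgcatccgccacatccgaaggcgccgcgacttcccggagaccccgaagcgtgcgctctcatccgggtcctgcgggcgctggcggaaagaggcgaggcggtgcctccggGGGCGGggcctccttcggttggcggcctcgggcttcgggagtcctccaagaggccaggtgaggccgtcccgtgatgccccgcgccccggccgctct
RBX1: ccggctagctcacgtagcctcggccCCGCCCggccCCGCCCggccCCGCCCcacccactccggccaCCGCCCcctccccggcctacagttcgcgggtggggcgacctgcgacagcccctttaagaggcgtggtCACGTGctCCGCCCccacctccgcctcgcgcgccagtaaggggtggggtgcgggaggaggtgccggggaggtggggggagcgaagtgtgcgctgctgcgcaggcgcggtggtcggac
The RBX1 window holds 1 E-box and 5 GC boxes, and the DDB1 window 1 GC box and none of the other motifs. Of all 35116 windows of this length 6.34% hold the E-box, 8.52% the ETS motif, 42.6% the GC box and 3.02% the interferon-type motif. Windows were found for 9 of the 10 genes: of their 22 windows 10 held a GC box, 3 an ETS motif, 2 an E-box (1 each of CUL4B and RBX1) and 0 the interferon-type motif. These are matches of letters and not sites of binding.

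CUL4B was the ligase gene that moved the other way. Its reference probe read 1.68 and 1.61 with DMSO in MM.1S, 1.68 and 1.71 with GSK126, 2.0 and 1.94 with UNC0638 and 2.02 and 2.14 with both, so that the 4 arrays with UNC0638 lay above the 4 without it. The second CUL4B probe, shown above, read 0.18 and 0.28 with DMSO and 0.11 and 0.28 with both (-0.03, SE 0.10, limma adjusted p = 0.798), and the mean over both probes did not pass the test (0.20, adjusted p = 0.0733). The rise is therefore a measurement of the probe at the end of the mRNA. CUL4A and CUL4B encode close paralogs, and cross-hybridisation of their probes was not tested. The second CUL4A probe also gave a lower value with both agents in MM.1S (-0.35, SE 0.12, adjusted p = 0.0436).

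CRBN itself did not pass the test in any comparison as fitted within its line. In MM.1S it read 0.61 and 0.53 with DMSO, 0.32 and 0.43 with GSK126, 0.64 and 0.64 with UNC0638 and -0.21 and 0.36 with both. The 2 combination arrays lay further apart than any other pair of CRBN replicates, and the first of them was the lowest of all 16 arrays. The difference from DMSO was -0.50 (SE 0.18, 95% interval -0.94 to -0.06, limma adjusted p = 0.0588). Without combination replicate 2 it was -0.78 (adjusted p = 0.0053), with normexp background correction -0.57 (0.0027), with the series table -0.54 (0.0482) and with 1 fit over all 16 arrays -0.50 (0.0336). In RPMI-8226 the gene read 0.40 and 0.53 with DMSO and 0.41 and 0.16 with both (-0.18, adjusted p = 0.44), so the receptor's arrays overlapped there.

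In RPMI-8226 none of the 5 ligase genes was called under the combination, where 7.99% of all genes tested were higher and 4.77% lower, and 1 of the 10 genes was called, IKZF2. That fit held no term for the replicate number, and with the number as a block IKZF3 was called as well (-0.74, limma adjusted p = 0.0152). DDB1 read 5.84 and 5.61 with DMSO and 5.17 and 5.33 with both (-0.47, SE 0.16, limma adjusted p = 0.0955). CUL4A read 3.80 and 3.44 with DMSO and 3.10 and 3.10 with both (-0.52, SE 0.16, adjusted p = 0.0807). Neither gene overlapped between the 2 groups, which was common among the 10 genes as given above and adds no support. Their replicate spread with DMSO was wider than in MM.1S. CUL4B read 1.22 and 1.42 with DMSO and 1.78 and 1.56 with both (0.35, adjusted p = 0.166), and RBX1 differed by -0.21 (adjusted p = 0.371). Of the 10 genes, 5 had an unadjusted p under 0.05.

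**Figure D2:**
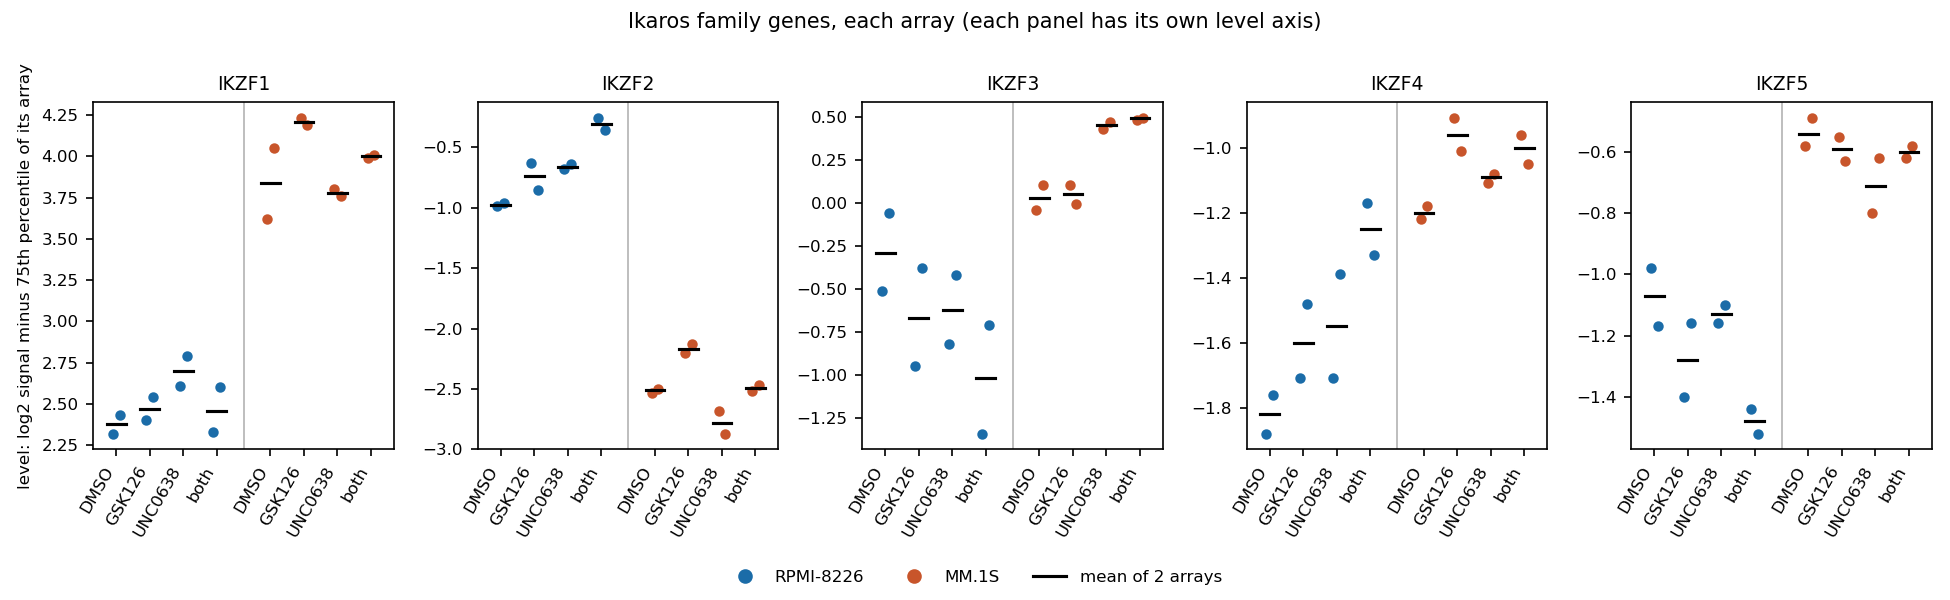
Levels of IKZF1 to IKZF5 (log2 signal minus the 75th percentile of the array) on each of the 16 arrays; points are arrays, black bars the mean of the 2 arrays of a group, blue RPMI-8226 and orange MM.1S. IKZF1 and IKZF2 are separated by line on every array, and IKZF3 lies apart by line most under both agents.

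IKZF2, the Helios gene, rose 1.58-fold in RPMI-8226 under both agents (log2 change 0.66, SE 0.14, 95% interval 0.33 to 1.00, limma adjusted p = 0.0303). It read -0.99 and -0.96 with DMSO, -0.63 and -0.85 with GSK126, -0.68 and -0.64 with UNC0638 and -0.26 and -0.36 with both, so that both combination arrays lay above all 6 others. In MM.1S it read -2.53 and -2.50 with DMSO, -2.20 and -2.13 with GSK126, -2.68 and -2.87 with UNC0638 and -2.52 and -2.47 with both, and the combination was within error of DMSO (0.02, adjusted p = 0.874). The combination effect was larger in RPMI-8226 than in MM.1S by 0.64 (SE 0.15, limma adjusted p = 0.0225, tested as the difference of the effects; 14.3% of all genes differed in this way). The RPMI-8226 call was lost without either array of DMSO, UNC0638 or the combination (adjusted p up to 0.154) and with normexp background correction (0.42, adjusted p = 0.0533). The difference between lines was lost without RPMI-8226 combination replicate 1 or without any DMSO or combination array of MM.1S (adjusted p up to 0.0737).

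Markers of other cell types also changed under both agents, and their part in the IKZF2 result was not tested. In RPMI-8226 all 3 T cell markers were called higher under both agents (CD3D by 4.99, CD3E by 4.67 and CD2 by 2.61 on the log2 scale), and their summed signal, in units of the array's 75th percentile, was 0.232 to 0.385 with DMSO, 0.645 to 1.11 with GSK126, 1.28 to 1.31 with UNC0638 and 5.85 to 6.33 with both. Of the myeloid markers CD14 was called higher (1 of 2). The myeloid sums were 0.526 to 0.919 with DMSO, 3.35 to 5.63 with GSK126, 0.424 to 0.801 with UNC0638 and 3.59 to 4.83 with both. CD14 was also called higher with GSK126 alone (2.60). Of the fibroblast markers COL1A2 was called higher, with sums of 0.0262 to 0.0645 with DMSO and 0.172 to 0.21 with both. COL1A1 was well above background on 2 of the 8 RPMI-8226 arrays. Plasma cell markers summed to 279 to 335 with DMSO and 179 to 235 with both, with 3 of 8 called lower. In MM.1S, where IKZF2 was within error of DMSO, 2 of 3 T cell markers were also called higher (sums of 0.221 to 0.253 with DMSO and 0.708 to 0.763 with both), and 8 of 8 plasma cell markers were called lower (538 to 552 and 372 to 377). Epithelial markers were lower too: EPCAM was called lower in RPMI-8226 (sums of 30.5 to 40.9 with DMSO and 15.5 to 18.2 with both) and both EPCAM and KRT8 in MM.1S.

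IKZF3, the Aiolos gene, ran in opposite directions in the lines. In MM.1S it read -0.04 and 0.10 with DMSO, 0.10 and -0.01 with GSK126, 0.43 and 0.47 with UNC0638 and 0.48 and 0.49 with both. The 4 arrays with UNC0638 lay above the 4 without it, and adding GSK126 to UNC0638 moved the level by less than the error (0.03, limma adjusted p = 0.814). The combination call of IKZF3 in MM.1S was lost when 1 fit was made over the arrays of both lines (0.46, adjusted p = 0.164). In RPMI-8226 it read -0.51 and -0.06 with DMSO, -0.95 and -0.38 with GSK126, -0.82 and -0.42 with UNC0638 and -1.34 and -0.71 with both. Replicate 1 was below replicate 2 in all 4 RPMI-8226 groups. The combination difference there, -0.74 (SE 0.31, limma adjusted p = 0.165), did not pass the test without a term for the replicate number. With that term it was called (SE 0.13, adjusted p = 0.0152). Replicates 1 and 2 lay on different slide rows, so the term also holds slide row.

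The test of the lines against each other for IKZF3 stood at the threshold. The combination effect in RPMI-8226 minus that in MM.1S was -1.19 (SE 0.35, limma adjusted p = 0.0503), and with the replicate number as a block the SE was 0.14 and the adjusted p 0.00139. For UNC0638 alone the difference was -0.75 (SE 0.29), called only with the block (adjusted p = 0.0253), and of all genes tested 3.19% differed between the lines in their response to UNC0638. For GSK126, where 0.917% of all genes differed, none of the 10 genes was called and 0 had an unadjusted limma p under 0.05. With the block the untreated lines also differed in IKZF3 (-0.32, adjusted p = 0.0233).

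IKZF1, the Ikaros gene, did not pass the test for any treatment. In MM.1S it read 3.62 and 4.05 with DMSO, 4.23 and 4.19 with GSK126, 3.80 and 3.76 with UNC0638 and 3.99 and 4.01 with both, and the DMSO pair spanned the UNC0638 and the combination arrays. In RPMI-8226 it read 2.32 and 2.43 with DMSO, 2.40 and 2.54 with GSK126, 2.61 and 2.79 with UNC0638 and 2.33 and 2.60 with both. The combination differences were 0.16 in MM.1S (limma adjusted p = 0.369) and 0.09 in RPMI-8226 (0.74), and the first was called with quantile normalization (0.51, adjusted p = 0.0291). It turned on the DMSO arrays: without DMSO replicate 2 it was 0.38 and called (adjusted p = 0.03), and without DMSO replicate 1 it was -0.05 (0.694). On the MM.1S arrays with UNC0638, where IKZF3 was called higher, IKZF1 lay within the DMSO pair, and a difference between the 2 genes was not tested.

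IKZF4, the Eos gene, did not pass the test against DMSO for any treatment. Its combination differences were 0.57 in RPMI-8226 (SE 0.17, limma adjusted p = 0.081) and 0.20 in MM.1S (0.0796), over levels of -1.88 to -1.17 in the first line and -1.22 to -0.91 in the second. With the percentile over detected probes the combination was called in both lines (0.71, adjusted p = 0.0481 in RPMI-8226 and 0.41, 0.00799 in MM.1S), and in RPMI-8226 also with 1 fit over all 16 arrays (0.57, 0.00961). IKZF5, the Pegasus gene, spanned -1.52 to -0.98 in RPMI-8226 and -0.80 to -0.49 in MM.1S, without overlap of the lines. Its combination differences were -0.41 (adjusted p = 0.124) and -0.07 (0.586). The second IKZF5 probe gave the same direction between the untreated lines (-0.47, adjusted p = 0.00596).

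**Figure D3:**
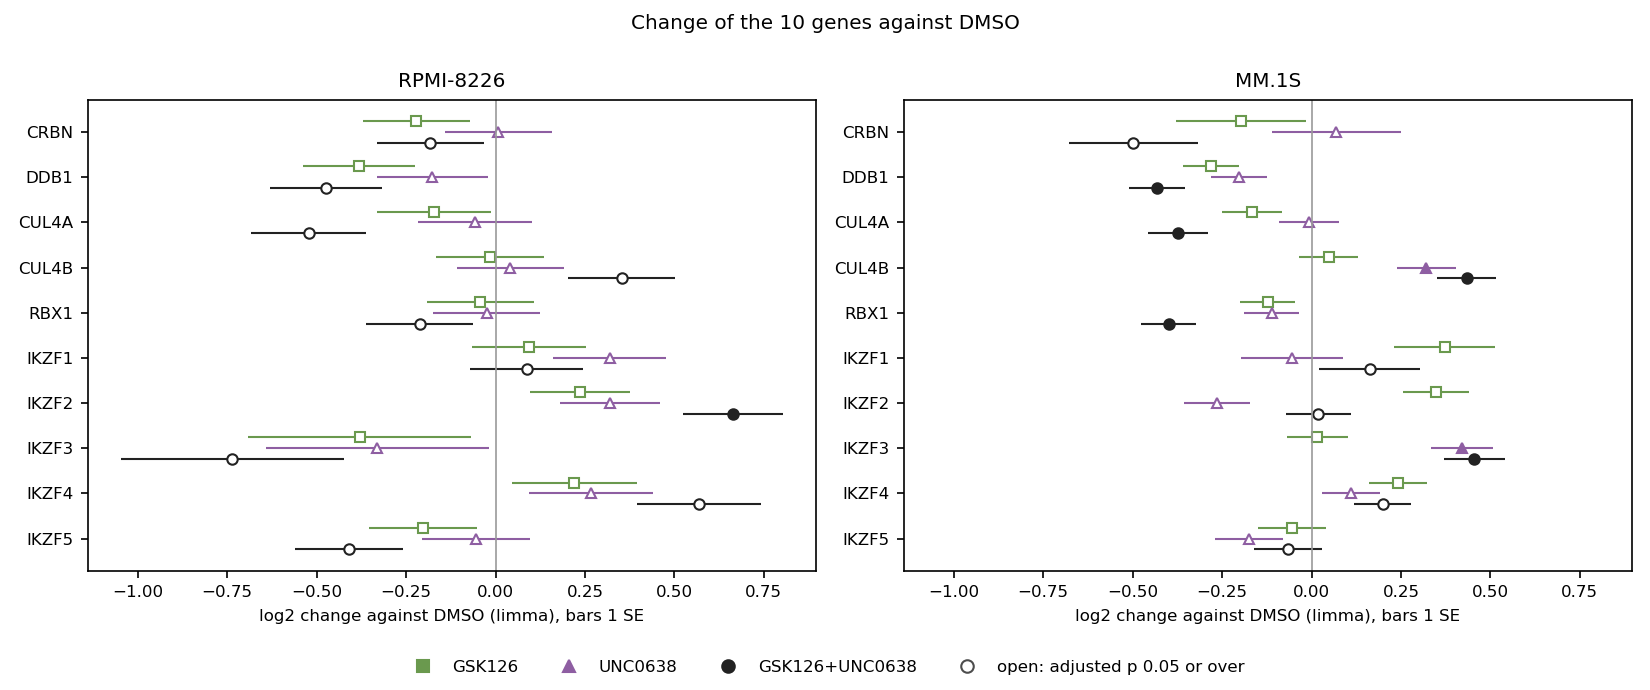
Log2 change against DMSO of each of the 10 genes under GSK126 (squares), UNC0638 (triangles) and both agents (circles), bars 1 SE from limma, RPMI-8226 on the left and MM.1S on the right; filled points passed the adjusted threshold of 0.05 and open points did not. Filled points are IKZF2 under both agents in RPMI-8226, CUL4B and IKZF3 under UNC0638 in MM.1S, and DDB1, CUL4A, CUL4B, RBX1 and IKZF3 under both agents in MM.1S. The fits held no term for the replicate number, and with it IKZF3 under both agents in RPMI-8226 was called too.

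The agents were also set against each other within a line. In MM.1S the combination was above GSK126 alone for CUL4B (0.39, limma adjusted p = 0.0146) and IKZF3 (0.44, 0.0114) and below it for IKZF2 (-0.33, 0.0359) and RBX1 (-0.28, 0.035), 4 of 10 genes where 38.1% of all genes were called. Against UNC0638 alone 1 of 10 was called, CUL4A as given above, where 14.3% of all genes were called. GSK126 and UNC0638 differed for IKZF2, which was higher with GSK126 (0.61, adjusted p = 0.0139), and for IKZF3, which was lower (-0.40, 0.0358), 2 of 10 where 12.9% of all genes were called. For Helios the agents lay on opposite sides of DMSO in MM.1S, although neither agent passed the test against DMSO itself (0.35, 0.0762 and -0.26, 0.0769) other than UNC0638 with quantile normalization. Of these calls, RBX1 against GSK126 and IKZF3 between the agents were lost whichever of the 8 MM.1S arrays was left out (adjusted p up to 0.149 and 0.151). IKZF2 against GSK126 was lost without either array of DMSO, GSK126 or the combination (up to 0.14), and between the agents without either GSK126 array or UNC0638 replicate 2 (up to 0.0709). Against GSK126, CUL4B was lost without either GSK126 array or combination replicate 2 (up to 0.0674) and IKZF3 without GSK126 replicate 2 (0.0617).

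In RPMI-8226 none of the 10 genes was called between the agents by limma. Against GSK126 alone 2.72% of all genes were called and 2 of the 10 had an unadjusted p under 0.05, against UNC0638 alone 3.66% and 2 of 10, and between GSK126 and UNC0638 1.63% and 0 of 10.

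The order of the levels across all 8 groups is given as a description with no test. How often neighbouring groups overlap was not counted over all genes, and a step between lines is also a step between slides. When the groups were ranked by mean, neighbouring groups overlapped on their arrays at 1 of the 7 steps for DDB1, at 2 for CUL4A and IKZF2, at 3 for IKZF4, at 4 for CUL4B, RBX1, IKZF1 and IKZF3 and at 5 for CRBN and IKZF5. The highest group was RPMI-8226 with DMSO for DDB1 and CUL4A, and RPMI-8226 with both agents for IKZF2. For the other 7 genes it lay in MM.1S: UNC0638 for CRBN, both agents for CUL4B and IKZF3, GSK126 for IKZF1 and IKZF4, and DMSO for RBX1 and IKZF5.

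**Figure D4:**
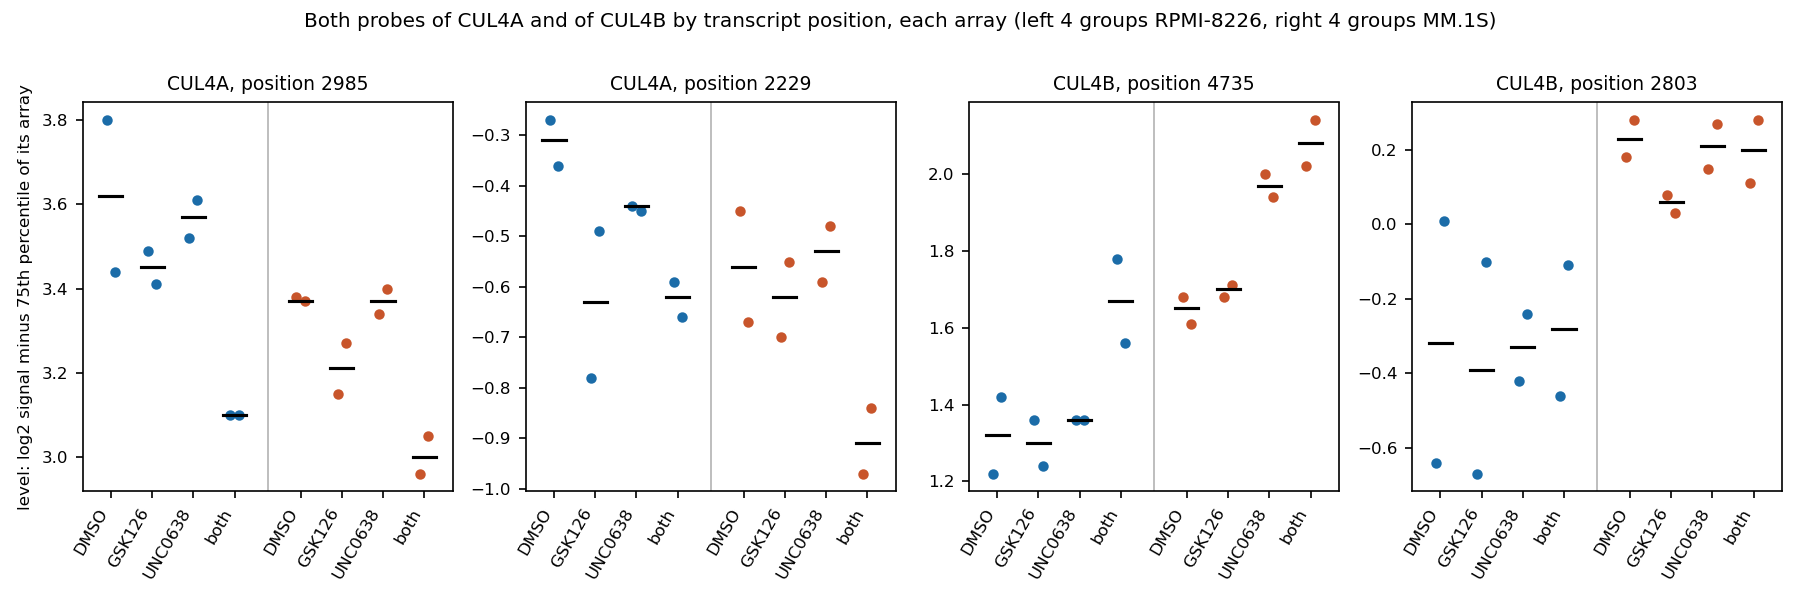
Levels (log2 signal minus the 75th percentile of the array) of both probes of CUL4A and of CUL4B on each of the 16 arrays, a panel for each probe titled with its transcript position; points are arrays, black bars the mean of the 2 arrays, blue RPMI-8226 and orange MM.1S. Both CUL4A probes lie lowest with both agents in MM.1S, and the MM.1S rise with UNC0638 seen for the CUL4B probe at position 4735 is not seen at position 2803.

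Genes that switch cullins on and off were examined beside the ligase, in a list that also held the ubiquitin-conjugating enzymes UBE2G1 and UBE2D3. Attachment of NEDD8 activates a cullin, and the COP9 signalosome removes it again. Of the 19 genes tested, 14 were lower and 0 higher with both agents in MM.1S, where 32.0% of all genes were lower and 22.9% higher. UBE2G1 (-0.59, limma adjusted p = 0.0472) and UBE2D3 (-0.46, 0.00513) were among the 14. The median log2 change of the list was -0.49, against -0.12 for all genes. With quantile normalization 9 were lower and 0 higher, and with the percentile over detected probes 9 were lower and 1 higher. In RPMI-8226 1 of the 19 was lower and 0 higher, where 4.77% of all genes were lower and 7.99% higher (list median -0.22, all genes -0.11). COPS6, a signalosome subunit, fell in both lines (-0.94, SE 0.11, limma adjusted p = 0.00107 in MM.1S; -0.80, SE 0.18, 0.0348 in RPMI-8226), although the RPMI-8226 call was lost with quantile normalization (-0.52, 0.0777) and with the percentile over detected probes (-0.66, 0.0538). COPS3 (-0.81), UBE2M, the NEDD8-conjugating enzyme (-0.81), and NAE1, a subunit of the NEDD8-activating enzyme (-0.80), fell in MM.1S, with adjusted p of 0.000602, 0.00108 and 0.00272. UNC0638 alone lowered 3 of the 19 in MM.1S, near the 16.4% of all genes, and none of the 19 was called with quantile normalization or with the percentile over detected probes. GSK126 alone lowered 0 there by limma, where 2.39% of all genes were lower.

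Calls among other cullins and other receptors of CUL4 went in both directions, as did those over all genes (22.9% higher and 32.0% lower with both agents in MM.1S). With both agents in MM.1S 2 of 7 other cullin genes were higher, CUL7 (0.97) and CUL9 (0.70), and 1 was lower, CUL1 (-0.68), the scaffold of the SCF ligases, which was also lower in RPMI-8226 (-0.75, limma adjusted p = 0.0272). Of 25 genes for other DDB1-bound receptors 4 were higher and 8 lower in MM.1S, shares close to or below those of all genes. None was called in RPMI-8226, where 7.99% of all genes were higher and 4.77% lower. DDB2, the receptor that recognises ultraviolet damage in DNA, was higher (0.96, adjusted p = 0.000634) and so was DCAF5 (0.79), while DCAF13 (-0.98) and DTL, the receptor that marks CDT1 for destruction (-0.86), were lower. The median of the receptors was -0.11, next to -0.12 for all genes, and with the percentile over detected probes 8 were higher and 7 lower.

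Among 18 other substrates and clients of cereblon, 1 was higher and 5 lower with both agents in MM.1S (median -0.19). This was no larger a share in either direction than the 22.9% and 32.0% of all genes. In RPMI-8226 1 was higher and 3 lower, where 7.99% of all genes were higher and 4.77% lower. With the percentile over detected probes 1 of the 18 was lower there. SLC16A1, the lactate transporter MCT1 that cereblon assists, fell in both lines (-1.35, limma adjusted p = 0.000402 in MM.1S and -0.85, 0.021 in RPMI-8226). GSPT1, a translation termination factor, and ARID2, a subunit of a chromatin remodeller, fell in MM.1S (-0.99 and -1.02); in RPMI-8226 they were called with the replicate block (GSPT1 -0.61, adjusted p = 0.0425, and ARID2 -0.83, 0.0102), and ARID2 also with normexp (-0.74, 0.0338). GLUL, glutamine synthetase and a natural substrate of cereblon, rose in RPMI-8226 with both agents (1.34, SE 0.23, adjusted p = 0.0169), whereas in MM.1S it rose with GSK126 (0.52, 0.0382), fell with UNC0638 (-0.60, 0.00998) and stood at -0.26 with both (0.076). The difference between lines was not tested for GLUL.

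Ikaros proteins work with the NuRD complex, which removes acetyl groups and remodels nucleosomes. Of 13 NuRD genes tested in MM.1S 2 were higher and 8 lower with both agents, where 22.9% of all genes were higher and 32.0% lower. Their median was -0.37, against -0.12 for all genes. With quantile normalization 3 of them were higher and 3 lower, and with the percentile over detected probes 2 and 5. None of 12 was called in RPMI-8226, where 7.99% of all genes were higher and 4.77% lower. The higher ones were CHD3, a remodelling ATPase, and MTA3. CHD3 read -0.05 and -0.21 with DMSO, 1.38 and 1.20 with GSK126, 0.10 and 0.20 with UNC0638 and 1.53 and 1.26 with both, so that the 4 arrays with GSK126 lay apart from the 4 without it (GSK126 1.42, limma adjusted p = 0.00612; both 1.52, 0.000436). MTA3 rose with GSK126 (0.70), UNC0638 (0.59) and both (1.04), and with normexp correction the calls for GSK126 (0.29, adjusted p = 0.061) and UNC0638 (0.24, 0.0611) were lost. MBD3 (-0.65) and MBD2 (-0.53), which tell the NuRD variants apart, were lower with both, MBD2 not with quantile normalization (-0.12, adjusted p = 0.336).

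IRF4, which keeps plasma cells alive, PRDM1, which encodes Blimp-1, and KLF2 are 3 genes of an axis that the study itself named on these samples, so their direction is not independent evidence. The paper also names MYC in this axis, and MYC was not in the list used here. By qRT-PCR the paper reports lower expression of these genes, PRDM1 included, under dual inhibition. With both agents IRF4 fell in MM.1S (-1.19, limma adjusted p = 0.000734) and in RPMI-8226 (-1.70, 0.00316), over arrays that read 4.21 and 4.14 with DMSO and 3.05 and 2.93 with both in the first line, and 2.89 and 2.52 and then 0.85 and 1.16 in the second. KLF2 (-1.83, adjusted p = 0.000218) and PRDM1 (-0.71, 0.00287) fell in MM.1S. In RPMI-8226 KLF2 read -0.98 and 0.26 with DMSO and -2.95 and -1.48 with both, a difference of -1.85 that did not pass the test without the replicate number (SE 0.71, adjusted p = 0.134) and was called with it as a block (SE 0.15, adjusted p = 0.00125). PRDM1 differed there by -0.39 (adjusted p = 0.257, and 0.127 with the block). On the same arrays IKZF1 was not called in either line as fitted, and IKZF3 was called higher in MM.1S. In RPMI-8226 IKZF3 differed by -0.74, called with the replicate block (limma adjusted p = 0.0152) and not without it (0.165). The settings that changed the IKZF1 and IKZF3 calls are given above, and a link to IRF4 was not tested.

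**Figure D5:**
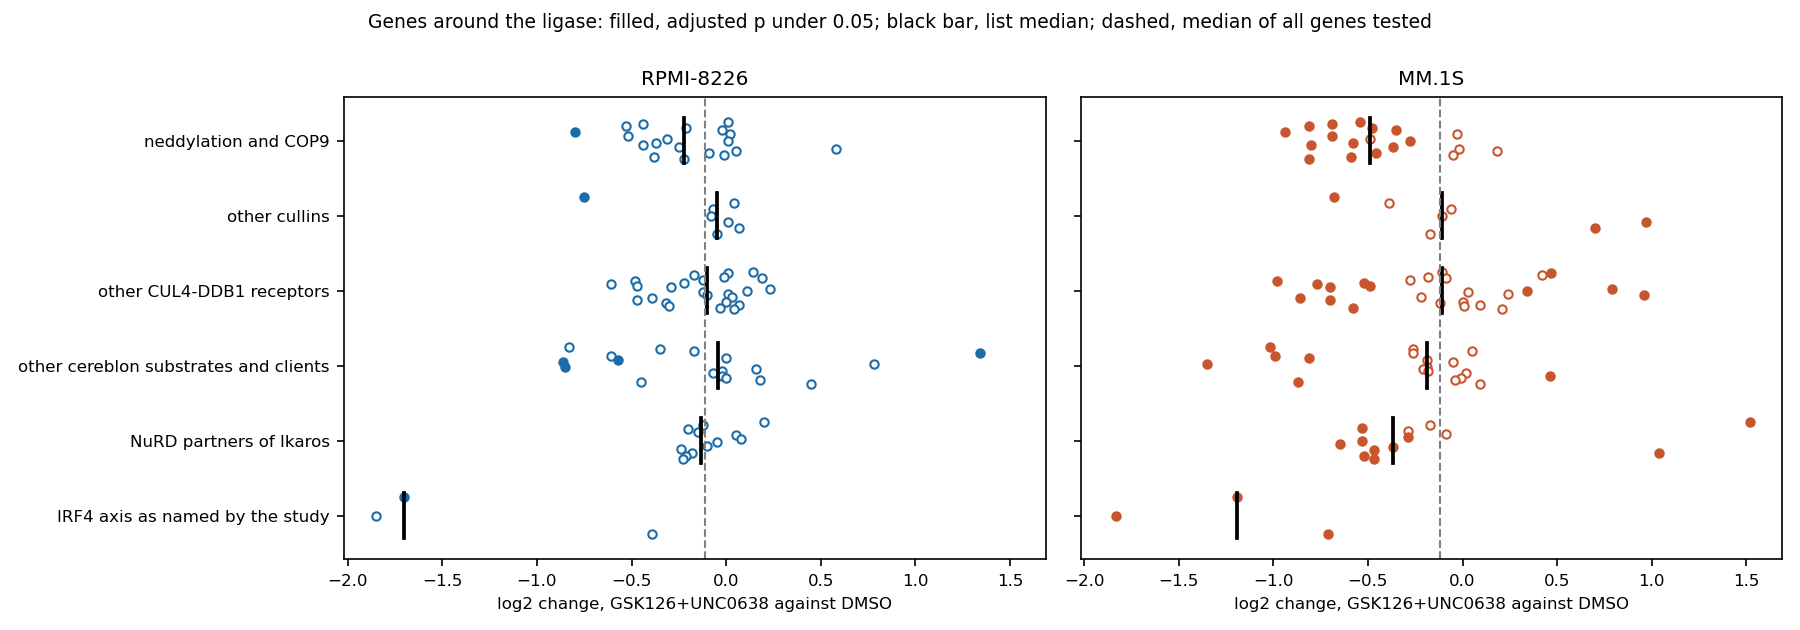
Log2 change with both agents against DMSO for each gene tested of the 6 gene lists, RPMI-8226 on the left and MM.1S on the right; filled points passed the adjusted threshold of 0.05, black bars are list medians and the dashed line is the median of all genes tested. The neddylation and COP9 list also holds the ubiquitin-conjugating enzymes UBE2G1 and UBE2D3. In MM.1S it has 14 filled points of 19 below 0, and its median, -0.49, lies left of the dashed line at -0.12. Of all genes tested there 32.0% were called lower.

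The genes whose levels ran most like CRBN, IKZF1 and IKZF3 over the 16 arrays were sought among 13580 genes, after each line's mean was removed, as a description with no test. The closest to CRBN were SPCS2 (Pearson r 0.879), MRI1 (0.853) and SP3 (0.851). For IKZF1 they were MYO7A (0.840), GTF2I (0.820) and NEDD4L (0.798). For IKZF3 they were MSI2 (0.917), the non-coding locus XLOC_000707 (0.900) and APP (0.899). These arrays share treatments and slides, so such likeness also holds what all genes of a treatment share.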

How the data were processed

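RNA of RPMI-8226 and MM.1S was hybridised to 16 one-colour Agilent arrays, 2 for each line and treatment, and scanned images were read with Agilent Feature Extraction 10.7, as the submitters' processing notes and file headers say. The deposited intensity of a spot is the background-corrected signal that the authors' scanner software wrote, on a linear scale, and the deposited series table holds the same intensity rounded to 3 significant digits (99.9958% of values equal). From it, log2 signal minus the 75th percentile of the array over non-control spots was computed, outlier spots were left out, and repeated spots were averaged. Probes entered the fit when both arrays of some group read them well above background (23199 probes in RPMI-8226, 25102 in MM.1S, 26931 in both). Differences were tested with limma 3.58.1 in R 4.3.3 (lmFit, eBayes) over the 8 arrays of a line, or over 16 between lines, with Benjamini-Hochberg adjustment over all kept probes and a threshold of 0.05. The paper's methods, which name GeneSpring, give no test for the arrays. Replicates are called biological in the study; p-values measure the spread between these samples.

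Same-numbered replicates deviated together in 6 of 6 pairs of RPMI-8226 groups (r 0.2541 to 0.4151) and in 5 of 6 of MM.1S (0.08471 to 0.2247). Calls and counts come from fits with no term for the replicate number, unless the replicate block is named. Replicate 1 lay on slide row 1 and replicate 2 on slide row 2, so replicate number and slide row cannot be told apart. The labels do not say that same-numbered replicates share a culture date. The members and gene lists were chosen with earlier results of these data known. Named genes are all members, up to 4 called genes a list with the largest change under both agents in either line, IRF4, and the 3 genes most like CRBN, IKZF1 and IKZF3; genes named as markers are those of the lists of other cell types. LYZ was not found on the array under that name. Alternatives were quantile normalization, normexp background correction on mean signal and local background, the percentile over probes detected on all 16 arrays, the series table, no filter, a mean over a gene's probes, a replicate block, fits over the compared groups only or over all 16 arrays, and leaving out each array. Probe coordinates are those of the array files (hg19); exons and untranslated regions were not assigned. Promoter windows came from RefSeq (GRCh38.p14).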

Additional observations from a re-analysis of the deposited data

Results flagged for a closer look

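IKZF2 was called as responding differently in the lines when both agents were given, a call that some settings and single arrays removed. The effect in RPMI-8226 minus that in MM.1S was 0.64 on the log2 scale (SE 0.15, limma adjusted p = 0.0225), tested as the difference of the effects over 16 arrays. Both RPMI-8226 combination arrays lay above both DMSO arrays, and in MM.1S the combination was 0.02 from DMSO. Each group held 2 arrays, too few to look for a single array that stands apart. The call was lost without RPMI-8226 combination replicate 1, or without any single DMSO or combination array of MM.1S (differences of 0.59 to 0.67). Keeping all probes also removed it (limma adjusted p = 0.0628), as did fitting just the compared groups (0.075). IKZF2 was read from its reference probe alone, at position 9307 of the mRNA, and its other probes stayed at background on every array.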

How the results depend on the processing

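Counts are of the 10 genes called. With both agents in RPMI-8226, 1 gene was called; this became 0 with normexp, with no filter and with the compared groups only, 2 with the percentile over detected probes and with the replicate block, and 7 with 1 fit over all 16 arrays. That fit also called 1 gene against GSK126 and 1 against UNC0638 in RPMI-8226, where 0 had been called. With UNC0638 in MM.1S, 2 became 0 with no filter, the compared groups only or the 16-array fit, and 1 with the mean over probes. With both agents in MM.1S, 5 became 3 with quantile normalization and with the percentile over detected probes; CRBN was gained with normexp, the series table and the 16-array fit, and CUL4B was lost with the mean over probes. Against GSK126, 4 became 2 with the percentile over detected probes and the 16-array fit and 1 with no filter and the compared groups only. Against UNC0638, 1 became 3 with normexp, 2 with the replicate block and 0 with quantile normalization, the percentile over detected probes, no filter, the compared groups only and the 16-array fit. Between GSK126 and UNC0638 in MM.1S, 2 became 4 with normexp, 1 with the 16-array fit and 0 with no filter and the compared groups only. For the difference between lines, UNC0638 went from 0 to 1 with quantile normalization and the replicate block, and both agents went from 1 to 2 with quantile normalization, normexp, the percentile over detected probes, the replicate block and the mean over probes, and to 0 with no filter and the compared groups only.

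RBX1 reversed with quantile normalization, to 0.07 (adjusted p = 0.46) with both agents in MM.1S and to 0.02 (0.857) for both against GSK126. The cause of these changes was not tested. Leaving out 1 array gave counts of 0 to 1 with both agents in RPMI-8226. In MM.1S it gave 0 to 2 with UNC0638, 4 to 6 with both, 0 to 3 for both against GSK126, 0 for both against UNC0638 and 0 to 2 between the agents. Between lines it gave 0 to 2 with both agents and 5 to 7 for the untreated lines, and 0 elsewhere. The replicate block added RBX1 for both agents against UNC0638 in MM.1S (-0.29, adjusted p = 0.0496), a line whose same-numbered replicates deviated together less (r 0.08471 to 0.2247). Beside the IKZF3 calls given above it changed no other call of the 10 genes. A slide block was not run because each line lies on 1 slide. The percentile over detected probes shifted every probe by 0.1385 with both agents in RPMI-8226, by 0.1068 with UNC0638 and by 0.2145 with both in MM.1S. Changes below these sizes rest on the scaling, and calls of larger ones can depend on it too. With both agents in MM.1S, DDB1 (-0.43), RBX1 (-0.40) and CUL4A (-0.37) lost their calls under it. Of the values of single genes recomputed, 1143 kept direction and side of the threshold, 103 lost their call, 16 gained one, 43 that were not called changed sign and 2 reversed. With 2 arrays in each group, a gene that was not called is not thereby shown to be unchanged.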
